A study of Mus musculus with 27 samples.

Results

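Inversional joins on the bait-proximal side of the Sα core were examined across the 5 genotypes of the CH12F3 series. They were every junction in the 9 files on chromosome 12 in plus orientation between positions 114502829 and 114509500 (mm9), a window of 6672 bp that starts at the edge of the core and ends with the 20 kb Sα window. The core, 114496668 to 114502828, is the shortest stretch that held 90% of the Sα joins of both orientations in these same libraries with clones weighted equally, so its edge was itself set from these data. Of 193201 joins in the series, 1859 met the rule, against 7771 inversional joins inside the core and 10272 inversional joins in the whole Sα window. They numbered 13 in PAXX-/-, 469 in XLF-/-, 756 in XLF-/-PAXX-/-, 617 in Ligase4-/- and 4 in WT. Only 8 lines repeated the junction and bait end of another line of the same library.

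CH12F3 is a B-lymphocyte line of the mouse, and its cells exchange IgM for IgA when stimulated. The junctions came from LAM-HTGTS, a sequencing method for genome-wide translocations that amplifies linearly from a fixed bait beside the Iμ promoter, at the 5′ side of the donor switch region Sμ, and reads on into the DNA joined to it (the prey). Genomic DNA was taken 72 h after stimulation with IL-4, αCD40 and TGFβ, which all groups received. PAXX-/- and XLF-/- were 2 clones each of the parental line, the 2 XLF-/-PAXX-/- clones were both made from a single PAXX-/- clone, Ligase4-/- was 1 clone of the parental line and 1 obtained from another laboratory, and WT was the parental line alone. Each clone gave 3 libraries, described as biological replicates, with 3610 to 14524 joins each. The libraries came from 8 sequencing runs, of which only PAXX-/- and XLF-/- shared any, so that run and genotype cannot be told apart in every other comparison.

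In class switch recombination, the enzyme AID deaminates cytosines in the donor and acceptor switch regions, and the resulting double-strand breaks are joined by non-homologous end joining. Classical end joining ends with ligation by DNA ligase 4. XLF and PAXX are accessory factors of that pathway, and the series asks whether they stand in for each other. In the absence of the pathway, ends can be joined by alternative end joining, which is known for longer resection of ends and for short runs of bases shared by both ends (microhomology). A broken acceptor region offers 2 ends to the bait. A deletional join takes the end further from the bait and loses the DNA between. An inversional join takes the end nearer to the bait and places that DNA in reverse. Bases lost from an end before joining move a deletional junction away from the bait, and an inversional junction towards it, which is the side described here. The files record where each junction lies and not where the break was, so resection itself was not measured.

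The DNA just above the core edge is printed first because these joins were dense there. The first 300 bases, chr12:114502829-114503128 on the plus strand of mm9, were rebuilt from the reference bases that the files list around each junction, with no conflicting base. They held 282 of the 1859 joins (15.2%). Capitals mark AGCT, a preferred AID target motif that reads the same on both strands. It occurs 3 times here.

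first 300 bases above the core: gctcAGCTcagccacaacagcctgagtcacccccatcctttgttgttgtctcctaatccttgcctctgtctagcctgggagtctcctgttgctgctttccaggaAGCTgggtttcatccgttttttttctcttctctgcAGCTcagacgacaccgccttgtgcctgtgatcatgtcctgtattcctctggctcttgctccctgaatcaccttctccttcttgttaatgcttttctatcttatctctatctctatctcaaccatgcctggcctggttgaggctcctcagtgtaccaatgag

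AGCT was thinner in this DNA than in the core. It occurred 42 times in the covered bases of the window (6.58 per kb), against 140 times in the core (22.8 per kb). Of the fully covered 20-base windows, 10.5% of 5795 above the core held it, against 29.97% of 6106 in the core. Covered bases are those listed around a junction, so DNA without joins nearby is not counted. Junction data covered 95.7% of the bases above the core and 99.7% of the core, with a GC content of 52.2% above and 53.2% within. The 20 reference bases around the junction held AGCT for 221 of the 1859 joins above the core (11.9%), against 2961 of the 7771 inversional joins in the core (38.1%). The share above the core was thus close to that of the fully covered 20-base windows there. By genotype it was 2 of 13 joins in PAXX-/-, 10.2% in XLF-/-, 11.1% in XLF-/-PAXX-/-, 13.8% in Ligase4-/- and 2 of 4 joins in WT.

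The joins were spread over many bases. They lay at 1383 distinct positions, of which 304 were hit in at least 2 libraries, 19 in at least 4, and the most shared position in 8. The reads below are from the 6 positions hit in the most libraries, and are shown because they make the structure of the joints visible. Each gives 20 bases of bait, then the bases shared by bait and prey in capitals, then 20 bases of prey running along the plus strand towards the bait. Reads are as deposited, and the first differs from the printed reference at single bases. The read shown has the number of shared bases most frequent at its position, the longest in a tie. All joins there, in the order printed, shared 3 to 7, -4 to 5, -3 to 7, 3 to 10, -1 to 3 and 0 to 9 bases. Negative numbers are inserted bases, so the reads do not show every kind of joint at these positions.

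position 114502979: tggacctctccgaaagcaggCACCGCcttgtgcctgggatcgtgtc
position 114502992: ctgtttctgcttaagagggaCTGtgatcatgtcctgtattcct
position 114502927: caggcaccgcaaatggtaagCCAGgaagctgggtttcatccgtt
position 114502837: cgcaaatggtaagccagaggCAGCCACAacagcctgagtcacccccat
position 114503018: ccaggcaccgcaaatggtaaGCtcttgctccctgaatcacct
position 114503461: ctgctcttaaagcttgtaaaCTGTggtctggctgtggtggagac

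These positions lay 151, 164, 99, 9, 190 and 633 bp above the core edge. All had reads from Ligase4-/- and XLF-/-PAXX-/- libraries, and all but position 114502927 also from XLF-/- libraries. The 6 shared bases of the first, CACCGC, recurred with the same bait end in 6 libraries of 4 clones. The 7 bases CTGTGGC at position 114503206 and TAAGCCA at position 114503768 recurred with the same bait end in 5 libraries each. In all, 102 of 1722 distinct pairs of junction and bait end were found in 2 or more libraries, and 78 in 2 or more genotypes. The bait and prey shared a median of 4 bases in pairs seen in 2 or more libraries, 6 bases (range 3 to 10) in the 17 pairs seen in 3 or more, and 2 bases in pairs seen in 1 library. At least 3 bases were shared in 82 of 102 recurring pairs (80.4%), against 608 of 1620 pairs found once (37.5%). Pairs are not independent of each other, and these shares are a description.

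The share of inversional Sα joins that lay above the core was many times larger in the clones without XLF or ligase 4 than in those with both. In the XLF-/- clones it was 22.1%, 21.9% and 23.1% in the libraries of clone 1, and 20.4%, 19.2% and 13.8% in those of clone 2. The XLF-/-PAXX-/- libraries gave 22.2%, 21.9% and 18.4% in clone 1 and 21.4%, 22.5% and 21.6% in clone 2. The Ligase4-/- libraries gave 19.5%, 13.8% and 17.1% in clone 1 and 19.4%, 15.2% and 18.8% in clone 2. All 18 of these libraries lay above every library of the other genotypes. The PAXX-/- libraries gave 2.25%, 3.15% and 1.67% in clone 1 and 2.17%, 0% and 4.35% in clone 2. WT gave 1.18%, 0% and 3.09%. The WT libraries lay within the range of the PAXX-/- libraries. The zeros were 0 of 89 joins in PAXX-/-, which allows a share of up to 3.37%, and 0 of 99 in WT, which allows up to 3.03%, both as 3 counts of the total. The two-sided Clopper-Pearson intervals of the same libraries reach 4.06% and 3.66%. Limits and intervals of this kind cover counting error only.

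**Figure D1:**
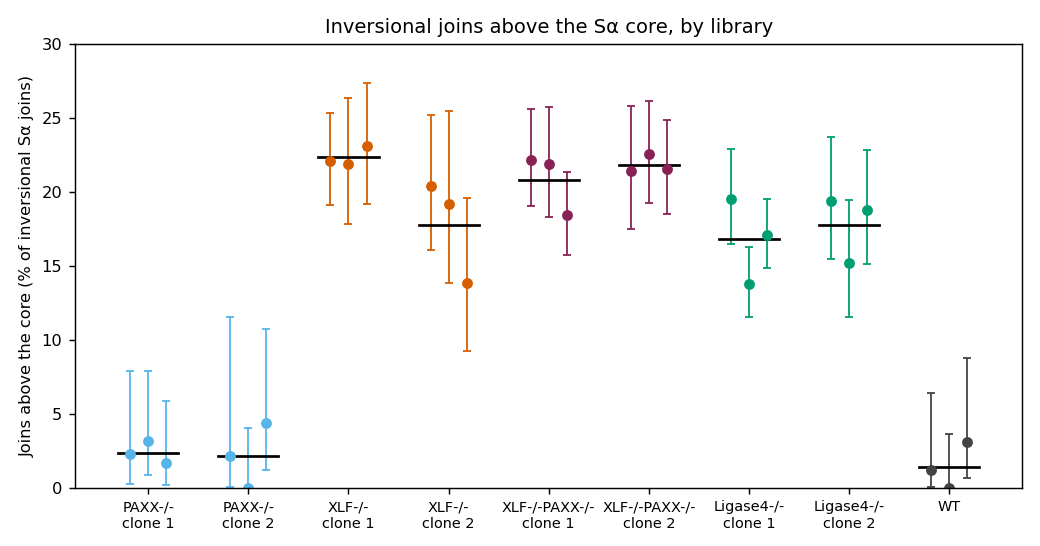
Share of inversional Sα joins that lie above the core (%, vertical axis) in each of 27 libraries, grouped by clone; points are libraries, bars are exact Clopper-Pearson 95% intervals for counting error, and black lines are clone means. The XLF-/-, XLF-/-PAXX-/- and Ligase4-/- libraries lie between 13.8% and 23.1%, and the PAXX-/- and WT libraries between 0% and 4.35%.

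Averaged over libraries, the share was 2.26% ± 1.46 in PAXX-/- (SD, n = 6), 20.1% ± 3.36 in XLF-/- (n = 6), 21.3% ± 1.48 in XLF-/-PAXX-/- (n = 6), 17.3% ± 2.38 in Ligase4-/- (n = 6) and 1.42% ± 1.56 in WT (n = 3). Over the 9 clone means, genotype accounted for 98.2% of the sum of squares (p = 0.0169 by exact permutation, 0.0476 adjusted). The 4 clones without XLF averaged 20.7%, against 1.98% in the 3 PAXX-/- and WT clones, which is 18.7 points more (95% interval 11.9 to 22.6). The exact two-sided permutation p of 0.0286, or 0.0476 once adjusted, is the smallest possible with 35 splits. The 4 clones without PAXX averaged 11.8%, against 13.9% in the 3 XLF-/- and WT clones, and the interval of that difference was wide (-2.06 points, -24.5 to 21.4, p = 0.886 by exact permutation). This contrast does not hold XLF status fixed, and clones without XLF were a larger part of the set with PAXX. It therefore cannot isolate PAXX loss. At a given XLF status, the differences over libraries were 0.841 points (PAXX-/- against WT) and 1.25 points (XLF-/-PAXX-/- against XLF-/-). The clone tests treat the clones as independent, although the double mutants share an origin with a PAXX-/- clone. The call over 5 genotypes was lost when any 1 clone except an XLF-/- one was left out, with adjusted p-values of 0.0754 to 0.131.

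Between single genotypes, libraries gave the spread. XLF-/- exceeded PAXX-/- by 17.8 points, with an interval of 14.4 to 20.7 (p = 0.00216 by exact permutation, 0.0173 adjusted). That is the pair that shared runs. Within one shared run XLF-/- averaged 21.2% and PAXX-/- 2.21%, and within the other 19.5% and 2.29%, and shuffling libraries only within runs gave an exact permutation p of 0.00476 (adjusted p = 0.0190). Against WT, the difference was 18.7 points for XLF-/- (13.3 to 23.1), 19.9 for XLF-/-PAXX-/- (17.6 to 22.2) and 15.9 for Ligase4-/- (12.1 to 19.4), each with an exact permutation p of 0.0119 and an adjusted p of 0.0190. Each of these 3 calls was lost when any 1 WT library was left out, because the 28 remaining splits of the exact test allow no p under 0.0357 (adjusted p = 0.0571). The difference of PAXX-/- from WT was 0.841 points, with an interval of -1.53 to 3.21 (p = 0.417 by exact permutation, 0.476 adjusted). It was 3.39 points when only joins with a bait end before bait position 56 were kept, which left 6 joins above the core in PAXX-/- and 0 in WT.

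Among the 3 genotypes in which these joins were common, XLF-/-PAXX-/- exceeded Ligase4-/- by 4.04 points, with an interval of 1.44 to 6.66 (p = 0.00866 by exact permutation, 0.0190 adjusted). In the exact test this call was lost without Ligase4-/- clone 1 (3.55 points, adjusted p = 0.0714) or XLF-/-PAXX-/- clone 2 (3.52 points, adjusted p = 0.160). That of XLF-/-PAXX-/- from XLF-/- was 1.25 points, with an interval of -1.70 to 4.62 (p = 0.500 by exact permutation). The difference of Ligase4-/- from XLF-/- was -2.78 points, with an interval of -6.34 to 1.09 (p = 0.128 by exact permutation, 0.170 adjusted). By the same exact test it passed only without XLF-/- clone 2 (-5.07 points, adjusted p = 0.0381) or that clone's library 3 (-4.03 points, adjusted p = 0.0238). Relative to all joins outside the bait window, the joins above the core numbered 24.0 and 10.9 per 1000 in the XLF-/- clones, 22.3 and 23.1 in the XLF-/-PAXX-/- clones, 14.7 and 13.9 in the Ligase4-/- clones, 0.542 and 0.441 in the PAXX-/- clones and 0.454 in WT. On that scale the XLF-/- clones stood well apart from each other.

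The 13 PAXX-/- and 4 WT joins can be listed. Those of PAXX-/- clone 1 lay 153, 211, 260, 855, 955, 1529, 6215 and 6503 bp above the core, and those of PAXX-/- clone 2 lay 14, 80, 82, 116 and 2580 bp above it. The WT joins lay 3, 7, 267 and 4103 bp above it. Most were thus close to the edge, with a few far out. Of the PAXX-/- joins, 9 shared 1 to 4 bases, 2 were direct and 2 had inserted bases. Of the WT joins, 2 shared 1 and 7 bases and 2 had 1 and 5 inserted bases.

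Orientation separated the genotypes in the same DNA. In the window above the core, inversional joins were 13 of 91 joins in PAXX-/- (14.3%, 95% interval 7.83 to 23.2), 469 of 676 in XLF-/- (69.4%, 65.8 to 72.8), 756 of 1060 in XLF-/-PAXX-/- (71.3%, 68.5 to 74.0), 617 of 908 in Ligase4-/- (68.0%, 64.8 to 71.0) and 4 of 37 in WT (10.8%, 3.03 to 25.4). Inside the core, deletional joins prevailed in every genotype, and inversional joins were 3.01% in PAXX-/-, 11.6% in XLF-/-, 14.0% in XLF-/-PAXX-/-, 13.4% in Ligase4-/- and 4.58% in WT. Over libraries, the inversional share above the core averaged 68.5% ± 1.19 and 70.6% ± 1.96 in the XLF-/- clones, 72.2% ± 1.14 and 70.8% ± 2.69 in the XLF-/-PAXX-/- clones, 66.6% ± 2.52 and 71.5% ± 2.78 in the Ligase4-/- clones, 18.3% ± 7.99 and 9.05% ± 10.1 in the PAXX-/- clones and 11.1% ± 12.7 in WT (SD, n = 3 each). The large spread in PAXX-/- and WT goes with the few joins there, 0 to 4 inversional joins in a library. Clones without XLF averaged 70.5%, against 12.8% in PAXX-/- and WT clones, which is 57.7 points more (50.3 to 63.1; p = 0.0286 by exact permutation, the smallest possible, 0.0476 adjusted). With the edge moved 500 bp towards the bait the difference was 25.7 points, at the same p, but the window then held 14 joins of either orientation in PAXX-/- and 2 in WT, and 1 PAXX-/- and 2 WT libraries had none and dropped out. Over 5 genotypes the share of the sum of squares was 99.1% (p = 0.0413 by exact permutation), and the adjusted value of 0.0516 missed the threshold. With the moved edge it was 61.9% (p = 0.231 by exact permutation).

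**Figure D2:**
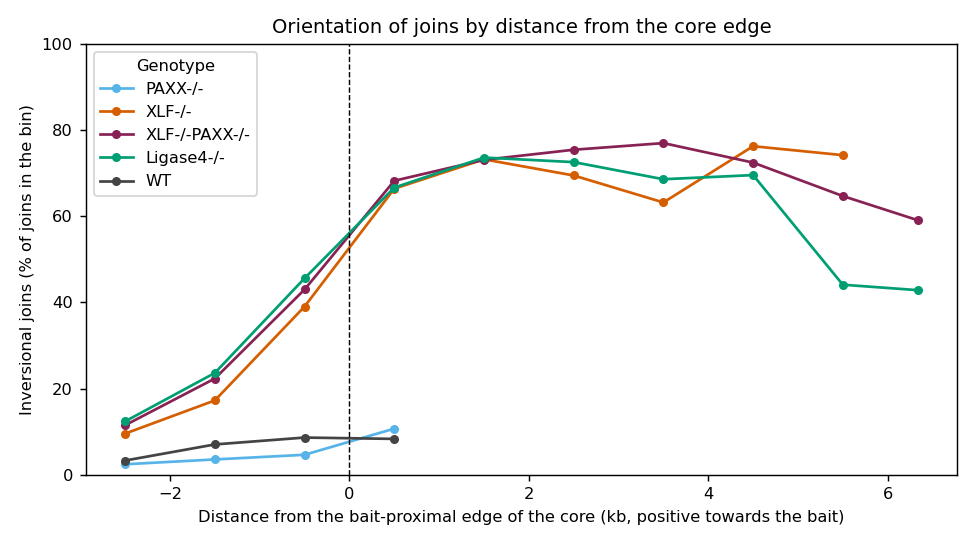
Inversional joins as a share of all joins in 1 kb bins (%, vertical axis) against distance from the bait-proximal edge of the core (kb, horizontal axis, positive towards the bait), pooled per genotype, for bins with at least 20 joins; the dashed line is the edge. In the last 1 kb inside the core the share is 39.1% in XLF-/-, 43.0% in XLF-/-PAXX-/- and 45.6% in Ligase4-/-, against 8.64% in WT, and in the first 1 kb above it 66.4%, 68.3% and 66.7%, against 8.33% in WT.

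The change of orientation was gradual. In the last 1 kb inside the core, the inversional share was 4.65% in PAXX-/-, 39.1% in XLF-/-, 43.0% in XLF-/-PAXX-/-, 45.6% in Ligase4-/- and 8.64% in WT. Beyond 1 kb above the edge it was 71.3% in XLF-/- (295 of 414), 73.2% in XLF-/-PAXX-/- (483 of 660) and 68.9% in Ligase4-/- (353 of 512). In the last 2 bins of the window it was 44.1% and 42.9% in Ligase4-/- (15 and 9 inversional joins), 64.7% and 59.1% in XLF-/-PAXX-/-, and 74.2% and 86.7% in XLF-/-. Over the whole stretch beyond 1 kb, PAXX-/- and WT had almost no joins of either orientation, 7 in PAXX-/- (4 inversional) and 1 in WT (inversional). In the first 1 kb, by contrast, PAXX-/- and WT had 75 and 33 deletional joins and 9 and 3 inversional joins.

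Joins thinned out with distance from the core edge in every genotype with enough of them. By successive 1 kb steps, the last one shorter because the window ends at 6672 bp, XLF-/- had 174, 93, 66, 55, 45, 23 and 13 joins. XLF-/-PAXX-/- had 273, 174, 126, 87, 50, 33 and 13 joins, and Ligase4-/- had 264, 148, 90, 59, 32, 15 and 9. Each step held fewer joins than the one before it in all 3 genotypes. PAXX-/- had 9, 1, 1, 0, 0, 0 and 2 joins and WT 3, 0, 0, 0, 1, 0 and 0. The first 1 kb held 37.0% ± 7.69 of the joins in XLF-/-, 36.3% ± 4.53 in XLF-/-PAXX-/- and 41.6% ± 7.13 in Ligase4-/- (SD, n = 6 libraries each), and the part beyond 3 kb held 28.0% ± 7.69, 24.6% ± 5.92 and 20.6% ± 8.12 in the same order.

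**Figure D3:**
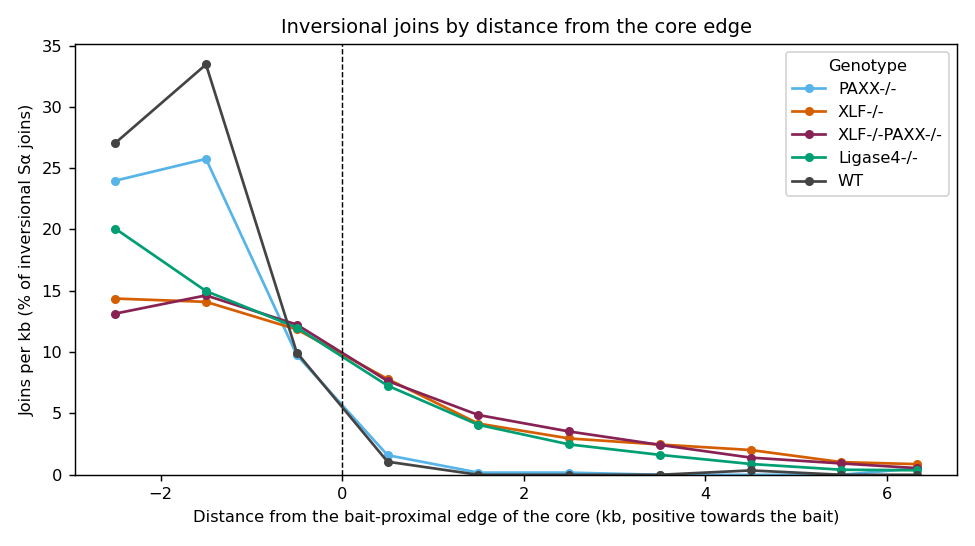
Inversional joins per kb as a share of all inversional Sα joins of a genotype (%, vertical axis) against distance from the bait-proximal edge of the core (kb, horizontal axis, positive towards the bait), pooled per genotype in 1 kb bins; the dashed line is the edge. The XLF-/-, XLF-/-PAXX-/- and Ligase4-/- lines decline gradually across the edge, and the PAXX-/- and WT lines drop to near 0 within the first 1 kb above it.

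The edge was no step in the mutants with many such joins. In the last 500 bp inside the core and the first 500 bp above it, XLF-/- had 144 and 95 inversional joins, XLF-/-PAXX-/- had 216 and 148, and Ligase4-/- had 233 and 151. The same flanks held 28 and 7 joins in PAXX-/- and 12 and 3 in WT. The median distance from the edge, averaged over libraries, was 1545 bp ± 389 in XLF-/-, 1587 bp ± 231 in XLF-/-PAXX-/- and 1312 bp ± 266 in Ligase4-/- (SD, n = 6 each). XLF-/-PAXX-/- and XLF-/- differed by 42.0 bp (-384 to 501, exact permutation p = 0.833), XLF-/-PAXX-/- and Ligase4-/- by 276 bp (-50.5 to 605, exact permutation p = 0.0887), and Ligase4-/- and XLF-/- by -234 bp (-694 to 209, exact permutation p = 0.245). None passed, and the intervals are wide against the medians themselves. Single libraries varied widely, between 1211 and 2034 bp in XLF-/- clone 1 and between 977 and 1234 bp in Ligase4-/- clone 1.

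The deletional joins past the opposite edge of the core give the matching comparison for the other kind of end. In the 6 XLF-/-, XLF-/-PAXX-/- and Ligase4-/- clones, the inversional joins above the core had a median distance of 1481 bp from their edge, against 932 bp for deletional joins below the core, a difference of 549 bp with the inversional joins further out in 6 of 6 clones and 18 of 18 libraries. This comparison was added after seeing the data, and both edges were set from joins that were mostly deletional. By exact permutation over clones it had p = 0.0312, the lowest value open to 64 sign flips, and missed the threshold once adjusted (0.0688). Both distances are measured from edges that these same joins set, so the difference is a description and no call is drawn from it. The joins past the core were 19.6% of inversional Sα joins, against 9.21% of deletional ones. The rule that drew the core leaves about 10% of all Sα joins outside it, counted over both sides, both orientations and all clones together. Since these same joins set the edges, the pair is a description and no test is given. In PAXX-/- and WT, deletional joins below the core were 3.15% ± 0.306 (n = 6) and 2.7% ± 0.314 (n = 3) of deletional Sα joins.

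**Figure D4:**
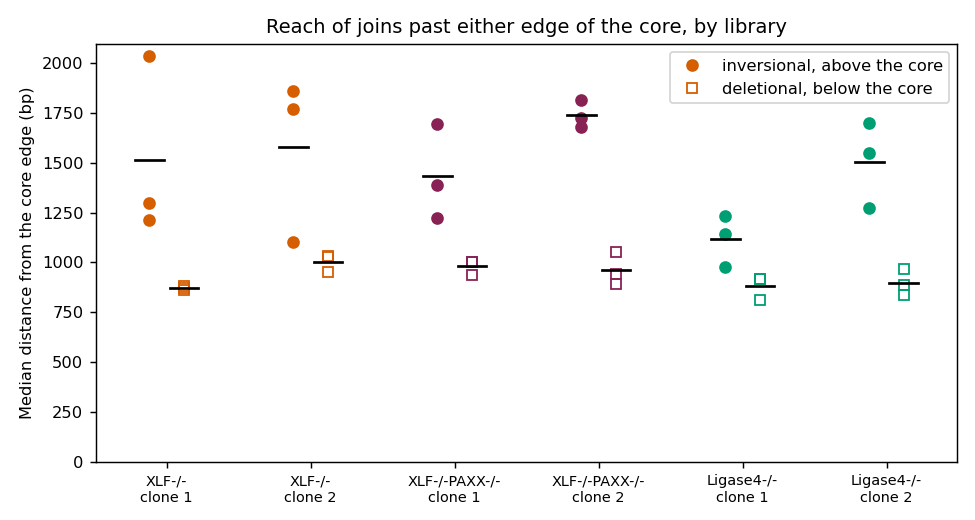
Median distance from the nearer edge of the core (bp, vertical axis) in each library of the 6 clones with enough joins, for inversional joins above the core (filled circles) and deletional joins below it (open squares); black lines are clone means. Inversional medians lie between 977 and 2034 bp and deletional medians between 810 and 1052 bp, with the inversional median the larger in all 18 libraries.

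The ends of the joints were mostly microhomologous. Overlap is the number of read bases that align to both bait and prey. Among the joins above the core it was positive in 78.8% ± 4.66 in XLF-/-, 77.2% ± 4.25 in XLF-/-PAXX-/- and 76.2% ± 6.94 in Ligase4-/- (SD, n = 6 libraries each). Direct joins, in which no base was shared or inserted, were 6.48% ± 2.92 in XLF-/-, 5.96% ± 1.68 in XLF-/-PAXX-/- and 5.93% ± 3.45 in Ligase4-/-, and joins with inserted bases 14.8% ± 4.48, 16.9% ± 4.31 and 17.8% ± 5.02. The mean length of a microhomology was 2.96 ± 0.230, 2.97 ± 0.247 and 3.18 ± 0.224 bases in the same order. No difference between the 3 genotypes passed on these measures. The adjusted p of the 12 exact permutation tests between them, the 3 on distance included, was at least 0.580. Among the widest intervals, the microhomology share of Ligase4-/- differed from that of XLF-/- by -2.53 points (-10.3 to 5.15). The comparison with PAXX-/- and WT could not be made, with 13 and 4 joins.

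No difference from the inversional joins inside the core passed in these broad classes either. Over the 6 clones, direct joins were 6.12% above the core and 5.37% within it (0.751 points, exact permutation p = 0.281, adjusted p = 0.309), microhomology 77.4% above and 77.8% within (-0.365 points, exact permutation p = 0.844), and mean microhomology length 3.037 bases above and 3.101 within (-0.0644 bases, exact permutation p = 0.219, adjusted p = 0.267). The bait part of the read was 63.9 bases long above the core and 62.9 within it (1.02 bases, exact permutation p = 0.125, adjusted p = 0.172).

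**Figure D5:**
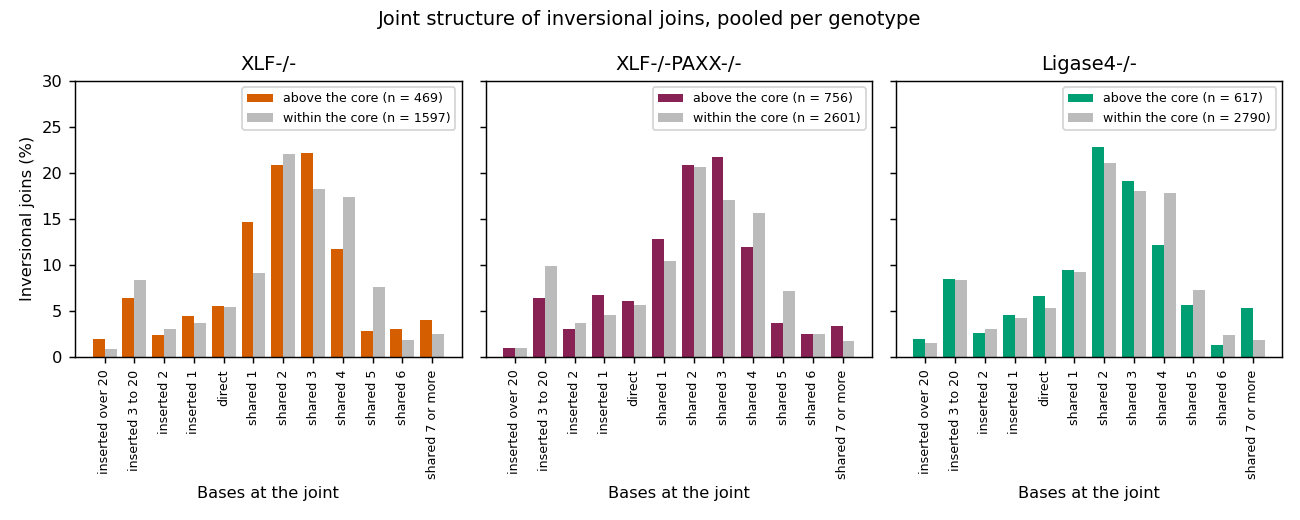
Inversional joins by the number of bases inserted at or shared by the joint (horizontal axis), as a share of the joins of a genotype (%, vertical axis), pooled per genotype, for joins above the core (coloured) and within it (grey). Joins above the core have a smaller share of joints with 4 shared bases in each panel (11.7% against 17.3% in XLF-/-, 11.9% against 15.6% in XLF-/-PAXX-/-, 12.2% against 17.8% in Ligase4-/-) and a larger share with 7 or more.

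Differences stood out within the microhomology class, in comparisons chosen after seeing the data. Joins sharing 4 or 5 bases were 15.6% above the core, against 24.6% within it, a difference of -9.01 points that ran from -14.1 to -5.59 over the clones and was negative in 6 of 6 clones and 18 of 18 libraries. Joins sharing 7 or more bases were 4.27% above the core, against 1.96% within it, a difference of 2.30 points that was positive in 6 of 6 clones and 16 of 18 libraries. It was 1.08 points with the edge 500 bp into the core, and turned to -0.548 points with bait ends before bait position 56 only, where 4 of 6 XLF-/- libraries kept at least 20 such joins. Joins sharing a single base were 12.4% above the core, against 9.74% within it (2.69 points, positive in 5 of 6 clones, exact permutation p = 0.0625, adjusted p = 0.115), and the difference was 1.61 and 1.12 points under the same settings. For the 2 longer classes the exact permutation p over clones was 0.0312, the lowest possible, and neither passed once adjusted (0.0688). Over libraries all 3 passed by exact permutation, with an adjusted p of 2.8e-05 for 4 or 5 bases, 0.00101 for 7 or more and 0.00858 for a single base. That test takes the libraries of a clone as independent, so its p does not measure the spread between clones. The classes were also picked from the same joins that it compares.

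The bases shared in those classes can be read from the joints. Among joins with 4 or 5 shared bases, pooled over XLF-/-, XLF-/-PAXX-/- and Ligase4-/-, AGCT lay in the shared bases of 18 of 296 joins above the core (6.08%), against 265 of 1694 within it (15.6%). The commonest such run was CCAG in both places, in 17 of 296 joins above the core (5.74%) and 271 of 1694 within it (16.0%). It is the run in the third read printed above. Of joins with 7 or more shared bases there were 77 above the core, and CACAGCT and CTGTGGC, with 5 joins each, were the commonest runs among 40 different ones. Pooled counts are given as a description, since joins of 1 library and repeats of 1 sequence are not independent.

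Structure was also compared between the outer and the inner joins of the window, again after seeing the data. Beyond 1 kb from the edge 76.7% of joins had microhomology, against 78.8% of those within 1 kb, a difference of -2.05 points (exact permutation p = 0.0312 over clones, adjusted p = 0.0688, and 0.318 over libraries). The difference was negative in 6 of 6 clones but positive in 5 of 18 libraries, and the shares were equal in XLF-/- clone 1 library 2. With the edge 500 bp into the core the difference was -0.0654 points (exact permutation p = 1.0). The mean microhomology length was 2.96 bases beyond 1 kb and 3.17 within it (-0.211 bases, exact permutation p = 0.125, adjusted p = 0.172). AGCT lay at 10.3% of the outer junctions (117 of 1136) and 14.4% of the inner ones (104 of 723), where 10.1% and 12.6% of the fully covered 20-base windows hold it.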

How the data were processed

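Junction tables from 27 LAM-HTGTS libraries of 9 CH12F3 clones were used. The authors aligned reads with Bowtie2 to mm9, per the submitters' processing notes, and no other upstream step is given in the sources used here. Each deposited table lists 1 junction per line by its read and genome positions, and pools the 3 libraries of a clone, which were told apart by a library column and numbered by name. From these positions the strand, distance from the core edge (position 1 is the first base above it) and overlap (last bait base minus first prey base on the read, plus 1) were computed. Shares were taken per library and averaged per clone. Joint structure and distance used libraries with at least 20 members.

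Genotypes were compared by exact two-sided permutation over clones or, for pairs of genotypes, over libraries, whose p-values then measure only the spread between libraries. Joins of 1 clone were compared by exact sign flips over 6 clones. Intervals of differences come from inverting the permutation test. Benjamini-Hochberg adjustment ran within 4 families of 5, 8, 11 and 12 tests, and adjusted p-values under 0.05 were called. The family of 11, also when run over libraries, counts the share past the core, for which no test is given. The members, regions and tests were chosen with earlier results of these data known. Positions and reads to print were taken by a rule, the single bases with members in the most distinct libraries, then the most bait ends, then the lower coordinate. At each, a read of the most frequent overlap was taken, the longest overlap in a tie. The tests were tried on simulated data. Alternatives moved the core edge by 500 bp, collapsed repeats, dropped joins with gaps over 20 bases, kept only bait ends before bait position 56 (some clones carry substitutions in the bait), lowered the minimum to 10 members, pooled joins per clone, kept to shared runs, and left out each library and clone. A fit with the replicate number as a block was not possible. Genes in the window are not named, because an mm9 annotation was not used here. Python 3.11.15, numpy 2.4.6, pandas 2.3.3, scipy 1.17.1 and matplotlib 3.10.9 were used.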

Additional observations from a re-analysis of the deposited data

Results flagged for a closer look

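Library 3 of XLF-/-PAXX-/- clone 1 lay apart from the other 5 libraries of its genotype in the share of inversional Sα joins above the core, with 18.4% against 21.4% to 22.5%. It was the only such library in 23 groups of libraries tested, and chance marks about 1 group in 20. A few inversional joins lay past the window. In the next 6672 bp towards the bait (chromosome 12, 114509501 to 114516172), which no comparison above used, there were 15 in XLF-/- (0.0402% of all its joins), 40 in XLF-/-PAXX-/- (0.0813%) and 21 in Ligase4-/- (0.0352%), against 0 of 11504 joins in WT, which allows up to 0.0261%. PAXX-/- had 2. Deletional joins outnumbered them there, with 31 in XLF-/-, 56 in XLF-/-PAXX-/- and 69 in Ligase4-/-, against 7 in WT. Single libraries held 0 to 6 of them in XLF-/-, 4 to 10 in XLF-/-PAXX-/- and 2 to 5 in Ligase4-/-. The difference between genotypes in that stretch was not tested.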

How the results depend on the processing

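No paired analysis was possible because the library column of the tables gives no replicate numbers, so joins were paired only within clones, and libraries shuffled only within shared runs. Apart from leaving out libraries or clones, 223 of 231 recomputed values kept their side of the threshold. No called difference changed sign, and 14 uncalled ones did. The orientation comparison over 5 genotypes passed with the edge moved 500 bp into the core (99.8%) and with joins pooled per clone (99.5%), and was 61.9% with the edge 500 bp towards the bait (exact permutation, adjusted p = 0.288), where the XLF contrast was 25.7 points. The excess of XLF-/-PAXX-/- over Ligase4-/- did not pass with bait ends before position 56 only (3.21 points, exact permutation, adjusted p = 0.0797). That filter also gave 0.0344 points for the PAXX contrast, 3.39 for PAXX-/- against WT, -0.312 for Ligase4-/- against XLF-/-, 2.89 for XLF-/-PAXX-/- against XLF-/- and -0.548 for 7 or more shared bases. With the edge 500 bp towards the bait, bait length differed by -0.0592 bases and distance by -202 bp between XLF-/-PAXX-/- and XLF-/-. With it 500 bp into the core, outer and inner joins differed by -0.0654 points in microhomology and -0.0569 bases in its length. With libraries in place of clones, which was chosen after seeing the data, the differences in joins with 1 (2.69 points), 4 or 5 (-9.01) and 7 or more shared bases (2.30) and in distance (549 bp) passed. Libraries of a clone are taken as independent there, so these calls do not extend to clones. The difference in distance (549 bp) and the share past the core (10.4 points) were measured from edges that these same joins set. No call is drawn from the distance, and the share is given without a test.

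With 1 library or clone left out, the sum of squares between genotypes was 97.2% to 99.8% for the share above the core and 98.2% to 99.7% for orientation, which then passed in 6 of 36 cases. The differences in the share from WT were 16.4 to 20.9 points for XLF-/-, 19.2 to 20.7 for XLF-/-PAXX-/- and 15.2 to 16.7 for Ligase4-/-. The excess of XLF-/-PAXX-/- over Ligase4-/- was 3.34 to 4.62, the difference of Ligase4-/- from XLF-/- -5.07 to -0.50, and the PAXX contrast -8.28 to 2.19. Joins above the core differed from core joins by 2.11 to 3.32 points for 1, -9.70 to -7.99 for 4 or 5 and 2.00 to 2.58 for 7 or more shared bases, and from deletional joins by 503 to 611 bp and 9.70 to 10.8 points. Outer and inner joins differed by -3.41 to -0.88 points in microhomology and -0.274 to -0.116 bases in its length. Of these comparisons within clones, the 6 other than the share past the core had an adjusted p of 0.0491 (exact permutation) without Ligase4-/- clone 1 library 1 only. The adjustment counted the share past the core among its 11 tests, so no call is drawn from that value. With a clone left out, the XLF contrasts, the comparisons of a mutant with WT and the tests within clones have too few splits to pass, and the cause of the other changes was not tested. The small number of inversional Sα joins limits PAXX-/- and WT most, with 46 to 127 a library. Joins of all kinds averaged 5917 a library in PAXX-/- and 3835 in WT, against 6214 in XLF-/-.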
